A study of Mus musculus with 12 samples.

Results

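The genes described here were 35 components of the PI3K, AKT and mTOR pathway, taken from a fixed list of mouse gene symbols and followed through mouse pancreatic neuroendocrine tumors (PanNETs) in 3 treatment groups. Each symbol matched 1 Ensembl identifier among the 38924 in the count tables, and all 35 were among the 16645 genes with enough reads to be tested. The list is of known pathway components and uses no measured value as a criterion, though it was drawn up with earlier results of these data known. The question was whether the transcripts of the pathway shifted when an angiogenesis inhibitor was given and, above all, when an inhibitor of mTOR was added to it.

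PI3K is a lipid kinase that insulin and growth factor receptors activate through adaptors such as the IRS proteins, and its product recruits the kinases PDK1 and AKT to the membrane. AKT inactivates the TSC complex, which frees the small GTPase Rheb to switch on mTOR complex 1 (mTORC1), while the Rag GTPases bring mTORC1 to the lysosome when amino acids are plentiful. mTORC1 promotes translation through S6 kinase and the eIF4E-binding proteins, and it also restrains its own input, since S6 kinase acts on IRS1 and mTORC1 stabilizes the receptor-binding adaptor GRB10. AKT further keeps the FOXO transcription factors out of the nucleus, where they would drive genes such as the insulin receptor. Rapamycin, bound to the protein FKBP12, inhibits mTORC1, and mutations of TSC and PI3K pathway genes are known from human PanNETs.

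All tumors came from RIP1Tag2 mice of the C57Bl6 strain, in which an oncogene of viral origin, under the rat insulin promoter, makes beta cells of the pancreas form insulin-producing tumors. The groups were 4 control tumors (saline), 4 sunitinib tumors (sunitinib blocks the receptors of VEGF and PDGF) and 4 treated with rapamycin plus sunitinib (R+S). The mice were 15.5 weeks old when treatment began, and it lasted 4 days. No group received rapamycin alone, so R+S against sunitinib is the comparison in which rapamycin is the added agent. The labels do not say whether tumors of a group came from separate mice. All 4 control tumors share the label prefix S409, sunitinib tumors 5, 6 and 8 share BX41, and R+S tumors 5 and 7 share BZ51. The tests treat each tumor as independent, so p-values would be too small if tumors of a group came from the same mouse.

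The reads assigned to genes numbered 31872342 to 44215054 per tumor. Beta-cell markers were high in all tumors except sunitinib tumor 6, in which the summed level of 10 such genes was 1856 CPM (read counts normalized to library size), against 31260 to 76790 in the other 11 tumors. Sunitinib tumor 6 also agreed least with its group, with a mean correlation of 0.887 of log2 CPM over genes. The 20 acinar (digestive enzyme) markers summed to 3.42 to 114 CPM in control, 13260 to 47520 in sunitinib and 3460 to 19170 in R+S tumors. The 8 endothelial markers summed to 468 to 635 CPM in control, 57.0 to 94.7 in sunitinib and 104 to 133 in R+S tumors. These bulk values cannot tell fewer cells of a type from less RNA per cell. No label prefix occurred in more than 1 group, so in all 3 comparisons, R+S against sunitinib included, anything that goes with the prefix cannot be told apart from treatment.

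Components of the pathway were expressed at very different levels. Per kilobase of exon, in control tumors, the translation factor gene Eif4b stood highest at 91.8 ± 5.11 CPM (SD, n = 4), followed by the GTPase gene Rraga at 68.1 ± 12.0, the kinase gene Akt1 at 44.2 ± 2.09 and the GTPase gene Rragc at 43.5 ± 6.29. The adaptor gene Grb10 stood lowest at 1.90 ± 0.402 CPM per kilobase, below Irs2 at 3.18 ± 0.372 and the kinase gene Sgk1 at 3.65 ± 0.270. The values of Akt1 and Rragc lay within their spread of each other, as did those of Irs2 and Sgk1. Mtor itself had 15.45 ± 2.25 CPM per kilobase.

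With rapamycin added to sunitinib, the transcript of Deptor, an inhibitory subunit of both mTOR complexes, was 1.49-fold higher and that of Akt1s1, which encodes the mTORC1 inhibitor PRAS40, was 1.60-fold lower. These were the 2 members of 35 (5.71%) called at an adjusted p under 0.05 by edgeR's quasi-likelihood test in this comparison, in which 7.21% of all genes tested were called (2.63% higher and 4.58% lower). In sunitinib against control, 0 of 35 members were called against 4.48% of all genes (1.93% higher and 2.55% lower), with 4 members at an unadjusted p under 0.05 (19.5% of all genes) and 1 called by DESeq2 (Akt1s1, higher), beside 9.06% of all genes to which it gave an adjusted p. In R+S against control, 0 of 35 were called against 4.16% of all genes (1.55% higher and 2.61% lower), with 6 members at an unadjusted p under 0.05 (20.1% of all genes) and 3 called by DESeq2 (Deptor higher, Akt1 and Eif4e lower), beside 10.4%. For R+S against sunitinib, 11 members had an unadjusted p under 0.05 (30.4% of all genes) and DESeq2 called 8 (19.5% of all genes), both near the shares of all genes. The shares of members called by edgeR were no higher than those of all genes in any of the 3 comparisons.

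The sizes of the differences were modest. The median log2 fold change of the members was -0.060 in sunitinib against control, -0.026 in R+S against control and 0.079 in R+S against sunitinib, beside 0.031, 0.0094 and -0.025 over all genes. The median absolute log2 fold change was 0.158, 0.151 and 0.259 for the members, in the same order, and 0.267, 0.277 and 0.361 over all genes. The 3 comparisons share tumors, so their values are given side by side and are not independent of each other.

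**Figure D1:**
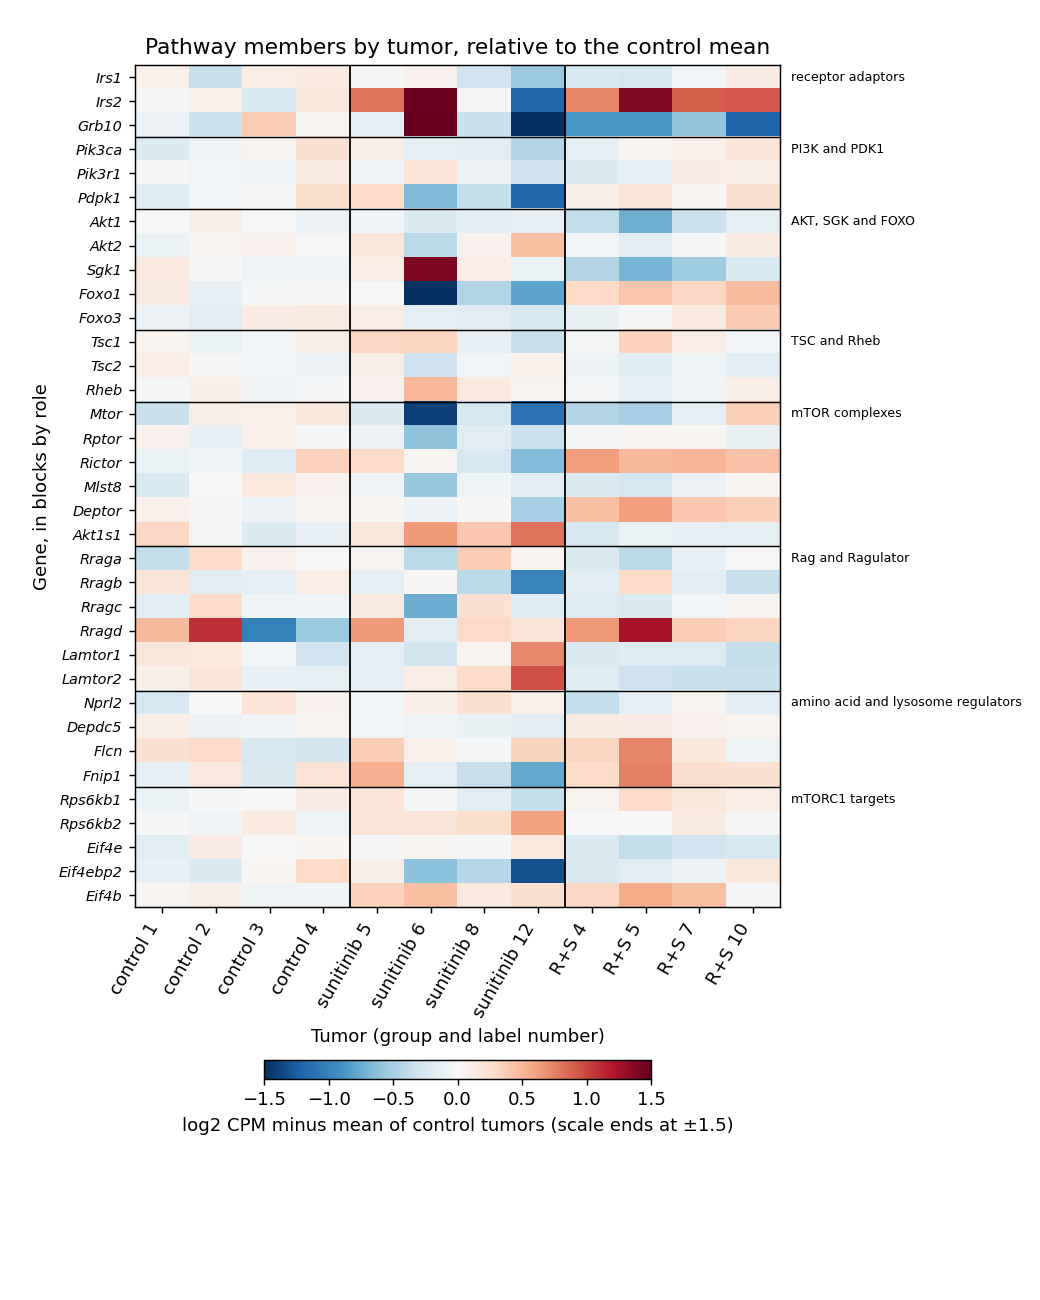
Heat map of the 35 members (rows, in blocks by role) in the 12 tumors (columns), colored by log2 CPM minus the mean of the control tumors, with the color scale ending at 1.5 in either direction. Most rows are pale, and strong colors include those of Irs2, Grb10, Sgk1, Foxo1 and Mtor in sunitinib tumor 6 and of Irs2, Grb10, Eif4ebp2 and Pdpk1 in sunitinib tumor 12, while Deptor and Rictor are higher than the control mean in all 4 R+S tumors.

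**Figure D2:**
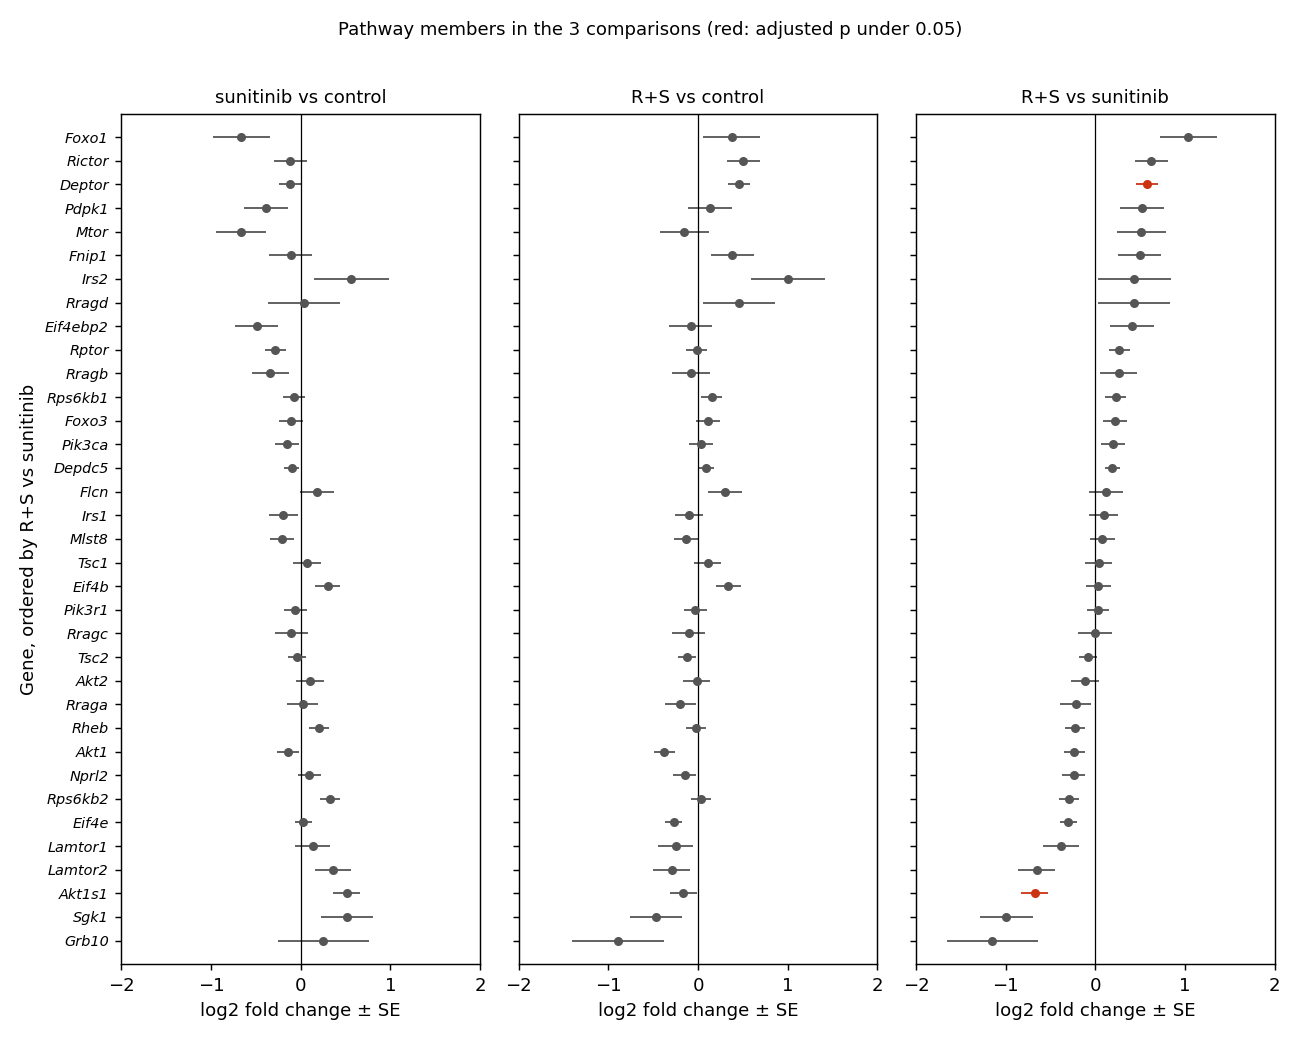
Log2 fold changes of the 35 members with their standard errors (points and bars) in the 3 comparisons, ordered by R+S against sunitinib, with members at an adjusted p under 0.05 in red. Deptor at 0.58 and Akt1s1 at -0.68 in R+S against sunitinib are the red points, and the first 2 panels have none.

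The tumors of a group did not overlap those of the other group for 2 members (5.71%) in sunitinib against control, 10 (28.6%) in R+S against control and 9 (25.7%) in R+S against sunitinib, beside 10.9%, 23.5% and 18.6% of all genes tested. For 6 members (17.1%) the 4 R+S tumors lay apart from all 8 other tumors, a property looked at after the values had been seen, beside 8.24% of all genes (3.95% above and 4.30% below). Deptor, Rictor and Foxo1 lay above and Sgk1, Lamtor2 and Eif4e below. The sunitinib tumors lay apart from the 8 others for 1 member, Rps6kb2 (2.86%, beside 4.03% of all genes, 2.16% above and 1.87% below), and the control tumors for 0 (beside 4.66%, 2.82% above and 1.83% below).

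Among the adaptors that link receptors to PI3K, 0 of 3 were called in any comparison. Irs1, the insulin receptor substrate on which S6 kinase acts, had 64.4, 48.8, 66.1 and 67.8 CPM in control tumors 1 to 4, 60.3, 64.2, 49.8 and 41.5 in sunitinib tumors 5, 6, 8 and 12, and 52.3, 51.4, 59.4 and 67.0 in R+S tumors 4, 5, 7 and 10 (the order of tumors used from here on). The 3 groups overlapped, and R+S differed from sunitinib by 0.09 on the log2 scale (95% interval -0.22 to 0.41). Of the 50-base words of Irs1 transcripts, 30.5% also occur in the antisense gene Gm9747, and whether reads were counted by strand is not given in the sources used here, so its level is uncertain.

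Irs2, the other main insulin receptor substrate and a known FOXO target, had 19.6, 21.1, 17.1 and 22.6 CPM in control, 35.0, 55.35, 19.7 and 8.79 in sunitinib, and 33.15, 52.3, 37.7 and 37.7 in R+S tumors. All R+S tumors lay above all control tumors, whereas the sunitinib tumors spread from below to above both other groups. R+S against control was 1.00 (SE 0.416) on the log2 scale, with an adjusted p of 0.204 by edgeR across all 12 tumors. Grb10, whose protein binds the receptors and dampens their signal, had 16.1, 13.5, 22.2 and 17.3 CPM in control, 15.5, 48.4, 13.5 and 4.97 in sunitinib, and 9.27, 9.27, 11.3 and 7.38 in R+S tumors. R+S tumors lay below all control tumors, while sunitinib tumors 6 and 12 held the highest and lowest values of the series. The log2 fold change of Grb10 was -0.89 (SE 0.510, adjusted p = 0.349 by edgeR) in R+S against control and -1.15 (SE 0.513, adjusted p = 0.156) in R+S against sunitinib. Without sunitinib tumor 6 the latter was -0.28 (adjusted p = 0.567 by edgeR).

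The catalytic subunit gene Pik3ca, the regulatory subunit gene Pik3r1 and Pdpk1, which encodes PDK1, were not called in any comparison. Pik3ca ranged from 73.4 to 117 CPM and Pik3r1 from 114 to 163 CPM over the 12 tumors, and the groups overlapped in each comparison for both. R+S differed from sunitinib by 0.19 (95% interval -0.07 to 0.46) for Pik3ca and by 0.03 (95% interval -0.21 to 0.27) for Pik3r1. Pdpk1 was lowest in sunitinib tumors 12 and 6, at 66.6 and 95.2 CPM, and between 118 and 183 CPM in the other tumors.

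Akt1, a main AKT kinase, ranged from 171 to 192 CPM in control, 156 to 174 in sunitinib and 109 to 164 in R+S tumors. The R+S tumors lay below all control tumors, with a log2 fold change of -0.38 (SE 0.119, adjusted p = 0.101 by edgeR). Akt2 overlapped between the groups in each comparison, between 107 and 193 CPM.

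Sgk1, a kinase related to AKT that mTORC2 activates, had 19.8, 17.6, 16.9 and 17.2 CPM in control, 19.3, 47.2, 19.3 and 16.65 in sunitinib, and 13.1, 11.0, 12.3 and 15.1 in R+S tumors. Every R+S tumor lay below every other tumor, and sunitinib tumor 6 stood far above the rest. R+S against sunitinib was -0.99 (SE 0.292, adjusted p = 0.0593 by edgeR). It was -0.52 (adjusted p = 0.0420 by edgeR) without sunitinib tumor 6 and -1.11 (adjusted p = 0.0337) without sunitinib tumor 5, fits that called 10.1% and 16.9% of all genes. Sgk1 was called in only these 2 of the 12 fits that left out 1 tumor (adjusted p up to 0.154). R+S against control was -0.47 (SE 0.291, adjusted p = 0.386 by edgeR).

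Foxo1, the FOXO factor that AKT restrains in beta cells, had 119, 100, 107 and 110.4 CPM in control, 109, 24.8, 79.7 and 62.8 in sunitinib, and 134, 146, 135 and 151.5 in R+S tumors. Foxo1 was highest in the 4 R+S tumors and lowest in sunitinib tumor 6. The log2 fold change was 1.04 (SE 0.319, adjusted p = 0.0655 by edgeR) in R+S against sunitinib and 0.37 (SE 0.316, adjusted p = 0.538) in R+S against control. The former was 0.76 (adjusted p = 0.0268 by edgeR) without sunitinib tumor 6 and 1.33 (adjusted p = 0.0208) without sunitinib tumor 5, fits that called 10.1% and 16.9% of all genes. Foxo1 was called in only these 2 of the 12 fits that left out 1 tumor (adjusted p up to 0.147). Foxo3, a related factor, had 84.0, 79.3, 97.35 and 98.5 CPM in control, 96.4, 80.9, 80.2 and 76.0 in sunitinib, and 82.8, 87.5, 99.0 and 118 in R+S tumors. Its groups overlapped in each comparison, and R+S differed from sunitinib by 0.21 (95% interval -0.05 to 0.48).

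The switch between AKT and mTORC1 was the block of the pathway with the smallest range of differences, from -0.23 to 0.20 on the log2 scale over its 3 genes and 3 comparisons, and none was called. Tsc1, the scaffold of the TSC complex, had 119.5, 108, 112.5 and 123 CPM in control, 143, 144, 106.5 and 92.0 in sunitinib, and 114, 146.5, 125 and 113 in R+S tumors. Tsc2, its GTPase-activating subunit, had 185.5, 174, 167 and 162 CPM in control, 182, 139, 168 and 181 in sunitinib, and 162, 152, 163 and 154 in R+S tumors. The groups overlapped in each comparison for both genes. Rheb, the GTPase that the complex holds off, had 80.2, 87.75, 78.65 and 80.0 CPM in control, 85.1, 115.5, 90.0 and 84.8 in sunitinib, and 80.7, 74.7, 77.8 and 87.6 in R+S tumors. R+S and sunitinib overlapped for Rheb, at -0.23 (95% interval -0.45 to -0.0032). The F-test of edgeR gave an unadjusted p of 0.0705 and an adjusted p of 0.199 for this difference. For Tsc1 the same comparison gave 0.04 (95% interval -0.26 to 0.33), and for Tsc2 -0.08 (95% interval -0.29 to 0.12).

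Subunits of the mTOR complexes held both called members. Deptor (chromosome 15, 55112317 to 55259271, + strand, GRCm38) had 102, 95.5, 91.3 and 100.3 CPM in control, 99.1, 91.75, 98.25 and 69.0 in sunitinib, and 133, 149, 129 and 125 in R+S tumors. All 4 R+S tumors lay above all 8 others, and control and sunitinib tumors overlapped. Its log2 fold change was 0.58 (SE 0.121, adjusted p = 0.0277 by edgeR) in R+S against sunitinib, 0.46 (SE 0.121, adjusted p = 0.0557) in R+S against control and -0.12 (SE 0.121, adjusted p = 0.612) in sunitinib against control. An exact two-sided permutation test of the 4 against 4 tumors gave p = 0.0286 for each of the 2 comparisons with R+S, the smallest p that this design allows. Every gene whose 2 groups do not overlap gets this p, so it adds nothing to the lack of overlap. The groups did not overlap for 18.6% of all genes in R+S against sunitinib and 23.5% in R+S against control.

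Akt1s1 (chromosome 7, 44848991 to 44855421, + strand, GRCm38) had 47.4, 38.8, 33.1 and 35.0 CPM in control, 43.0, 59.4, 50.4 and 67.35 in sunitinib, and 32.35, 35.7, 34.9 and 34.7 in R+S tumors. The sunitinib tumors lay above all R+S tumors and, but for an overlap of sunitinib tumor 5 with control tumor 1, above the control tumors. Control and R+S tumors overlapped. Its log2 fold change was -0.68 (SE 0.153, adjusted p = 0.0315 by edgeR) in R+S against sunitinib, 0.51 (SE 0.153, adjusted p = 0.0926) in sunitinib against control and -0.16 (SE 0.153, adjusted p = 0.583) in R+S against control. Without control tumor 1 the difference between sunitinib and control was 0.63, with an adjusted p of 0.0493 by edgeR, in a fit that called 3.59% of all genes. Akt1s1 was called in that comparison in 3 of 23 alternatives.

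Both calls were lost when some tumors were left out. Deptor was not called without R+S tumor 4, 5 or 7 (0.59, 0.53 and 0.60, adjusted p = 0.0710, 0.0971 and 0.0704 by edgeR), and was called without R+S tumor 10 (0.61, adjusted p = 0.0499). Akt1s1 was not called without any 1 of the 4 R+S tumors (-0.69 to -0.64 on the log2 scale, adjusted p = 0.0652 to 0.0987 by edgeR) or without sunitinib tumor 12 (-0.56, adjusted p = 0.0543). The fits without R+S tumor 4, 5 or 7 called 1, 0 and 1 of all genes in this comparison, so calls lost there are not particular to these members. Those without R+S tumor 10 and without sunitinib tumor 12 called 1.86% and 3.47% of all genes. Without sunitinib tumors 6 and 12 together, Deptor gave 0.44 (adjusted p = 0.0583 by edgeR) and Akt1s1 -0.44 (adjusted p = 0.121). That fit called 1.16% of all genes. The acinar and endothelial marker levels given above also differed between the groups. With the mean log2 level of the acinar markers as a covariate, Deptor gave 0.66 (adjusted p = 0.0465 by edgeR) and Akt1s1 -0.59 (adjusted p = 0.0832). With that of the endothelial markers, they gave 0.43 (adjusted p = 0.472 by edgeR) and -0.39 (adjusted p = 0.565). In this comparison the acinar fit called 1.56% of all genes and the endothelial fit 6 genes in all, so lost calls there are not particular to these members.

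Rictor, the defining subunit of mTORC2, had 65.7, 68.2, 61.9 and 89.7 CPM in control, 86.05, 72.6, 59.8 and 44.9 in sunitinib, and 109, 99.2, 100.6 and 96.2 in R+S tumors. The R+S tumors lay above all 8 others. Its log2 fold change was 0.62 (SE 0.184, adjusted p = 0.0597 by edgeR) in R+S against sunitinib and 0.50 (SE 0.184, adjusted p = 0.152) in R+S against control. The former was 0.77 (adjusted p = 0.0194 by edgeR) without sunitinib tumor 5, a fit that called 16.9% of all genes. Rictor was called in only this 1 of the 12 fits that left out 1 tumor (adjusted p up to 0.132). Rptor, the defining subunit of mTORC1, had 81.1, 70.7, 81.4 and 76.5 CPM in control, 73.0, 50.7, 69.3 and 61.7 in sunitinib, and 76.4, 78.6, 79.4 and 71.9 in R+S tumors. Its groups overlapped in each comparison, with R+S against sunitinib at 0.27 (SE 0.117, adjusted p = 0.151) and R+S against control at -0.02 (95% interval -0.25 to 0.21).

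Mtor, the kinase shared by both complexes and the target of rapamycin, had 123, 165, 164 and 174 CPM in control, 134, 58.8, 129 and 72.1 in sunitinib, and 114.5, 109, 140.5 and 198 in R+S tumors. Sunitinib tumors 6 and 12 were the lowest of the series and R+S tumor 10 the highest, and the groups overlapped in each comparison. Sunitinib against control was -0.66 (SE 0.277, adjusted p = 0.210 by edgeR) and R+S against control -0.15 (95% interval -0.69 to 0.39). Mlst8, a subunit common to both complexes, lay between 37.8 and 62.8 CPM and overlapped between all groups, and 16.4% of its 50-base words are shared with the antisense gene Bricd5.

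**Figure D3:**
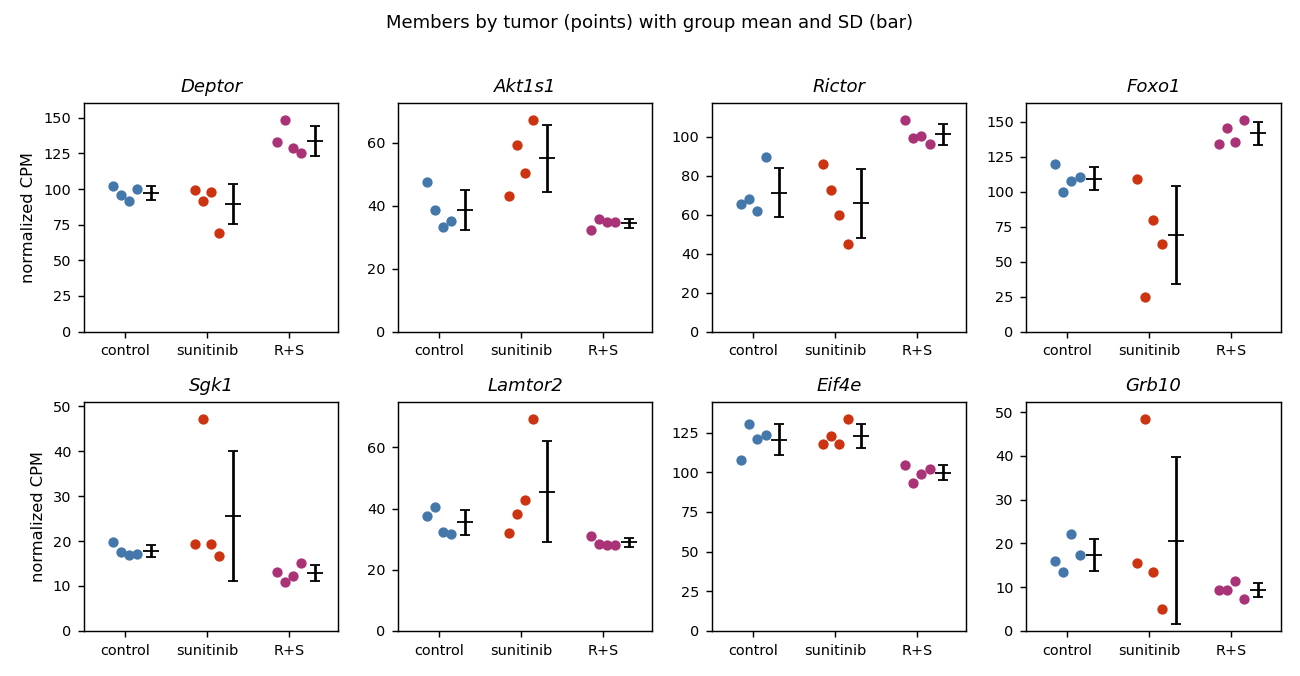
Normalized CPM of 8 members in each tumor (points, by group) with the group mean and SD (black bars), on axes that start at 0. The 4 R+S points of Deptor, Rictor and Foxo1 lie above all other points and those of Sgk1, Lamtor2 and Eif4e below, whereas those of Akt1s1 overlap the control points and lie below the sunitinib points.

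The lysosomal branch that reports amino acids was called in 0 of 10 members in each comparison. Rraga, Rragb and Rragc, which encode Rag GTPases, and Lamtor1, the lysosomal anchor of the Ragulator complex, overlapped between groups throughout. Of the 50-base words of Lamtor1, 25.6% are shared with other genes, mainly the antisense gene Lrrc51, so its level is uncertain. Rragd, the remaining Rag GTPase gene, varied most among control tumors, from 14.7 to 63.8 CPM. Lamtor2, another Ragulator subunit, ranged from 31.8 to 40.5 CPM in control, 31.9 to 69.4 in sunitinib and 28.0 to 31.2 in R+S tumors. Its R+S tumors lay below all others, and R+S against sunitinib was -0.65 (SE 0.205, adjusted p = 0.0689 by edgeR), with sunitinib tumor 12 holding the highest value.

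Nprl2 and Depdc5 encode subunits of the GATOR1 complex, which shuts the Rag GTPases off, and Flcn and Fnip1 encode the folliculin complex, which acts on RagC and RagD. Depdc5 ranged from 51.9 to 56.4 CPM in sunitinib and 60.1 to 63.6 in R+S tumors without overlap, a log2 fold change of 0.19 (SE 0.0842, adjusted p = 0.153 by edgeR). Fnip1 ranged from 96.9 to 130 CPM in control and 132 to 190 in R+S tumors, also without overlap, at 0.38 (SE 0.241, adjusted p = 0.400). Flcn and Nprl2 overlapped between all groups.

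Of the 5 members downstream of mTORC1, 0 were called. Eif4e, the cap-binding translation factor, ranged from 107.5 to 131 CPM in control, 118 to 134 in sunitinib and 93.6 to 105 in R+S tumors. The R+S tumors lay below all others, by 0.30 on the log2 scale against sunitinib (SE 0.0923, adjusted p = 0.0642 by edgeR) and 0.27 against control (SE 0.0923, adjusted p = 0.123). Rps6kb2, which encodes an S6 kinase, ranged from 49.3 to 57.3 CPM in control, 59.5 to 78.9 in sunitinib and 51.5 to 56.9 in R+S tumors. Its sunitinib tumors lay above all others, at 0.32 (SE 0.112, adjusted p = 0.138) against control, and 19.5% of its 50-base words are shared with other genes, mainly Ptprcap. Eif4b, which S6 kinase phosphorylates, was higher in all sunitinib (452 to 562 CPM) than in all control tumors (389 to 437 CPM), at 0.30 (SE 0.139, adjusted p = 0.258). The other S6 kinase gene Rps6kb1 and the eIF4E-binding protein gene Eif4ebp2 overlapped between groups in each comparison.

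How many members were called in R+S against control depended on which tumors were in the fit. A fit of fewer tumors also repeated the filter and the normalization, and the cause of the change was not tested. With only the 8 tumors of that comparison in the edgeR fit, 7 members were called in place of 0. Irs2 (0.99, adjusted p = 0.00548), Rictor (0.49, adjusted p = 0.0266), Deptor (0.45, adjusted p = 0.00912) and Foxo1 (0.36, adjusted p = 0.0200) were higher in R+S tumors in that fit, and Grb10 (-0.90, adjusted p = 0.0158), Sgk1 (-0.48, adjusted p = 0.0327) and Eif4e (-0.28, adjusted p = 0.0452) were lower. The same fit called 15.8% of all genes tested. The same 7 genes were called when sunitinib tumors 6 and 12 were left out of the fit of all groups, which called 15.2% of all genes in that comparison. For R+S against sunitinib, in contrast, a fit of only those 8 tumors called 0 members and 3 of all genes.

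A wider list of 63 pathway genes outside the members, 62 of them tested, gave the setting. Of these, 1 was called in sunitinib against control (1.61%, beside 4.48% of all genes), 2 in R+S against control (3.23%, beside 4.16%) and 8 in R+S against sunitinib (12.9%, beside 7.21%). Their median log2 fold changes were 0.01, 0.09 and 0.11.

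Eif4ebp1, which encodes the eIF4E-binding protein that mTORC1 inactivates, had 12.6, 29.9, 12.3 and 9.44 CPM in control, 30.4, 22.0, 28.4 and 26.4 in sunitinib, and 5.94, 7.53, 6.53 and 6.98 in R+S tumors. The R+S tumors lay below all others, with a log2 fold change of -1.99 (SE 0.316, adjusted p = 0.0221 by edgeR) against sunitinib and -1.25 (SE 0.310, adjusted p = 0.0449) against control. Ddit4, a stress-induced inhibitor of mTORC1 that acts through TSC and is induced by low oxygen, had 16.4, 20.7, 20.3 and 23.5 CPM in control, 32.5, 103, 32.5 and 36.7 in sunitinib, and 15.15, 11.2, 14.1 and 15.4 in R+S tumors. It rose by 1.34 (SE 0.343, adjusted p = 0.0493) in sunitinib against control and fell by 1.87 (SE 0.349, adjusted p = 0.0252) in R+S against sunitinib. Without sunitinib tumor 6 these differences were 0.75 (adjusted p = 0.0142 by edgeR) and -1.28 (adjusted p = 0.0144). The 3 groups of Ddit4 lay apart, with R+S lowest and sunitinib highest.

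The helicase gene Eif4a1 fell by 0.97 (SE 0.152, adjusted p = 0.0211 by edgeR) in R+S against sunitinib, from 151.5 to 241.5 CPM to 89.4 to 108 CPM, and 28.4% of its 50-base words are shared with other genes, mainly the pseudogene Eif4a-ps4. Telo2, which helps to assemble mTOR and related kinases, fell by 0.82 (SE 0.177, adjusted p = 0.0295), from 32.6 to 56.8 CPM to 19.8 to 24.9 CPM. Igf1r, the receptor for insulin-like growth factors, rose by 0.91 (SE 0.226, adjusted p = 0.0380), from 8.90 to 16.5 CPM in sunitinib to 19.1 to 34.6 CPM in R+S tumors, beside 18.3 to 25.2 CPM in control. Sesn1, a stress-induced inhibitor of mTORC1 and a FOXO target, rose by 0.65 (SE 0.136, adjusted p = 0.0277), from 44.2 to 53.2 CPM in sunitinib to 63.4 to 87.2 CPM in R+S tumors, beside 54.5 to 76.2 CPM in control. For all 4 genes sunitinib and R+S tumors did not overlap. The other 2 calls, which the naming rule did not cover, were Tfeb (-0.59, adjusted p = 0.0470), a lysosomal transcription factor held back by mTORC1, and Gsk3a (-0.30, adjusted p = 0.0491), a kinase that AKT inhibits and that shares 25.7% of its 50-base words with an antisense gene.

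Prr5l, which encodes a protein bound to mTORC2, fell by 2.24 on the log2 scale in R+S against control (SE 0.567, adjusted p = 0.0485 by edgeR), at 1.31 to 2.56 CPM against 8.20 to 11.2 CPM, with sunitinib tumors from 0.553 to 7.68 CPM. As with the members, leaving out R+S tumor 4, 5 or 7 ended the R+S against sunitinib calls of Eif4ebp1, Ddit4, Eif4a1, Sesn1, Igf1r and Telo2, with adjusted p-values by edgeR between 0.0623 and 0.0999. Those fits called 1, 0 and 1 of all genes in that comparison, so the loss is not particular to these genes. The call of Ddit4 in sunitinib against control held in 3 of the 12 fits that left out 1 tumor, with adjusted p-values up to 0.137. That of Prr5l held in 2 of 12 (up to 0.160), that of Eif4ebp1 in R+S against control in 4 of 12 (up to 0.128), and that of Igf1r in 3 of 12 (up to 0.0941). Of all genes, the 12 fits called 2.61% to 5.34% in sunitinib against control, 1.73% to 9.67% in R+S against control and 0% to 16.9% in R+S against sunitinib. When only the 8 tumors compared were fitted, 13 of the 62 genes were called in R+S against control, beside 15.8% of all genes. In R+S against sunitinib 1 was called, beside 3 of all genes.

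**Figure D4:**
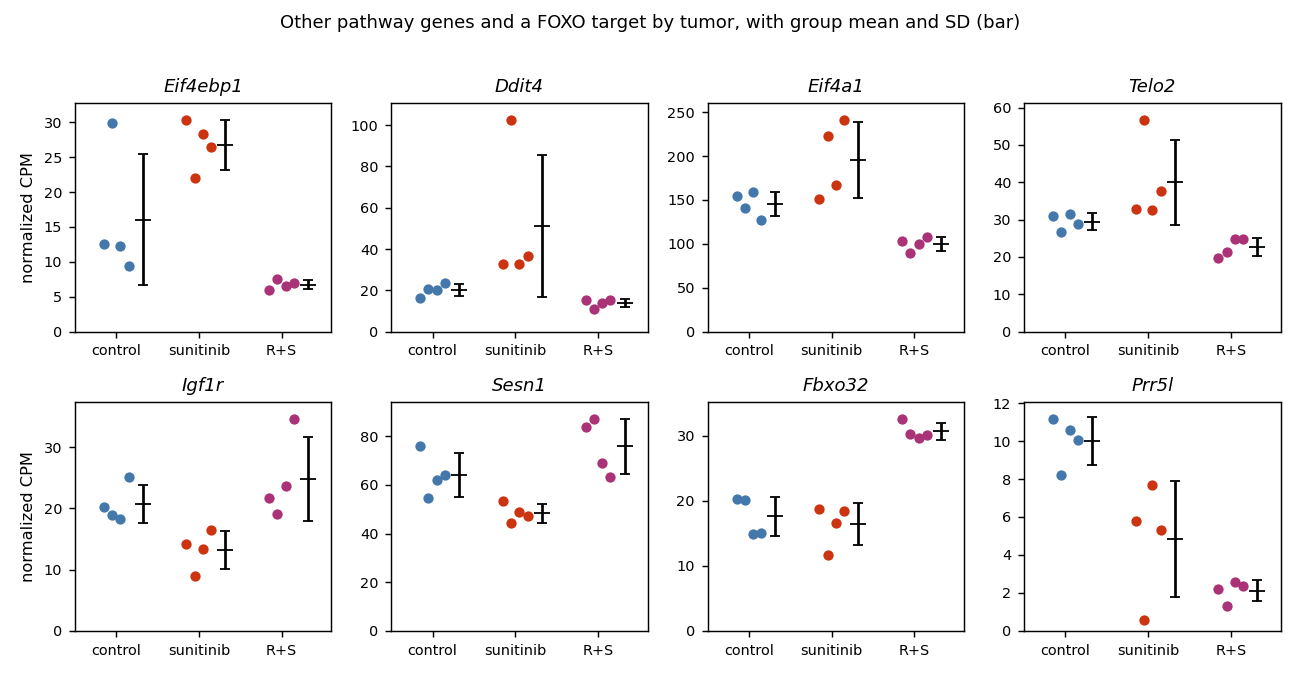
Normalized CPM of 7 pathway genes outside the members and of the FOXO target Fbxo32 in each tumor (points, by group) with the group mean and SD (black bars), on axes that start at 0. The R+S points of Eif4ebp1, Ddit4, Eif4a1 and Telo2 lie below all others and those of Fbxo32 above all others, between 29.7 and 32.6 CPM.

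Known FOXO target genes were listed as a readout of the branch that AKT restrains, and 16 of 20 were tested. Of these, 0 were called in sunitinib against control, beside 4.48% of all genes. There 3 had an unadjusted p under 0.05 by edgeR (19.5% of all genes) and 2 were called by DESeq2 (9.06% of all genes). In R+S against control 1 was called (6.25%, beside 4.16% of all genes) and in R+S against sunitinib 2 (12.5%, beside 7.21%). All were higher, beside the 1.55% and 2.63% of all genes called higher. In the same order, 3 and 5 had an unadjusted p under 0.05 by edgeR, beside 20.1% and 30.4% of all genes. DESeq2 called 1 and 4, beside 10.4% and 19.5% of all genes. Fbxo32, an atrophy-related ubiquitin ligase, had 20.3, 20.2, 14.9 and 15.1 CPM in control, 18.7, 11.7, 16.5 and 18.5 in sunitinib, and 32.6, 30.3, 29.7 and 30.2 in R+S tumors. It rose by 0.91 (SE 0.170, adjusted p = 0.0252 by edgeR) against sunitinib and 0.80 (SE 0.169, adjusted p = 0.0224) against control. The second call was Sesn1, described above. The median log2 fold change of the 16 genes was 0.24 in R+S against control and 0.16 in R+S against sunitinib. In the same order, 13 and 12 of 16 were positive, beside 51.0% and 48.2% of all genes. The genes were measured in the same tumors, so their signs are not independent. Not all targets were higher: Gadd45a, a stress response gene, was at -0.76 (adjusted p = 0.177) in R+S against control, where its R+S tumors lay below all control tumors. With the acinar markers as a covariate Fbxo32 gave 0.60 (adjusted p = 1.00) in R+S against control, and with the endothelial markers -0.28 (adjusted p = 0.959). In that comparison the acinar fit called 0 of all genes and the endothelial fit 2, so the loss is not particular to Fbxo32. Leaving out control tumor 3 or 4 or R+S tumor 4, 5 or 7 also ended the Fbxo32 call against control (0.73 to 0.82, adjusted p up to 0.0930 by edgeR). Those fits called 1.73% to 2.19% of all genes in that comparison, beside 4.16% with all tumors. Leaving out R+S tumor 4, 5 or 7 ended the call against sunitinib (0.88 to 0.93, adjusted p up to 0.0941 by edgeR), in fits that called 1, 0 and 1 of all genes.

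The promoters of the members were searched for motifs of factors downstream of the pathway, in the 250 bases before each start site in the RefSeq table for GRCm38.p6, on both strands. It held 46 promoters of 33 members and none for Deptor and Rps6kb2. The E-box CACGTG, bound by TFEB and by MYC family factors, was present in 9 of the 46 (19.6%), beside 1978 of 32851 promoters (6.02%). The FOXO motif GTAAACA was in 1 of 46 (2.17%, Akt1), beside 3.17%, and the ATF4 motif TGATGNAA in 1 (2.17%, Akt2), beside 3.45%. Member promoters had a median GC content of 59%, against 52.4% for all promoters. The E-box promoters belonged to Irs1, Irs2, Sgk1, Rheb, Rragb, Rragc, Lamtor1, Fnip1 and Eif4e, that is, to adaptors, a kinase, the switch, the lysosomal branch and a translation factor, and not to Akt1s1. A match is a description of letters, not a measured site.

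The windows around these E-boxes are shown because they are the sequence feature that members from several roles share, with the E-box in capitals and 10 bases on either side, 5′ to 3′ along the gene. That of Sgk1 lies too near the edge of its promoter to be shown. Rragb and Eif4e each have 2, both Eif4e windows lying before the second of its listed starts.
Irs1, chr1:82291539-82291564, - strand, 115 bases before the start: gaggctccgtCACGTGttttgctcct
Irs2, chr8:11008958-11008983, - strand, 44 bases before the start: aacgcagagtCACGTGttgttttgct
Rheb, chr5:24842442-24842467, - strand, 96 bases before the start: cgcgcgcggtCACGTGggtgtgttgt
Rragb, chrX:153139821-153139846, + strand, 127 bases before the start: gagcccgggcCACGTGatggcgggtg
Rragb, chrX:153139912-153139937, + strand, 36 bases before the start: agggtagcggCACGTGacaggccctg
Rragc, chr4:123917311-123917336, + strand, 112 bases before the start: tgattccgggCACGTGatagtaccac
Lamtor1, chr7:101905759-101905784, + strand, 68 bases before the start: gccttcctatCACGTGccgcgggtcc
Fnip1, chr11:54438094-54438119, + strand, 75 bases before the start: agtttgctgcCACGTGatacggctcg
Eif4e, chr3:138527030-138527055, + strand, 228 bases before the start: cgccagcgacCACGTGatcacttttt
Eif4e, chr3:138527194-138527219, + strand, 64 bases before the start: acacgtccgtCACGTGggcaggagcc

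The 9 genes with an E-box differed in direction. In R+S against sunitinib Fnip1 stood at 0.49, Irs2 at 0.44 and Irs1 at 0.09 on the log2 scale, Rragb at 0.26 and Rragc at -0.0022, and Rheb, Eif4e, Lamtor1 and Sgk1 at -0.23, -0.30, -0.39 and -0.99. None of them was called in that comparison by edgeR, and DESeq2 called Eif4e and Sgk1 (adjusted p = 0.00744 and 0.0110).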

How the data were processed

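Poly(A) RNA of 12 tumors was sequenced from strand-specific libraries. The authors deposited 1 table of raw counts per gene and tumor; the submitters' processing notes name cutadapt 1.2.1, TopHat2 2.0.9, HTSeq 0.5.4p3 and GRCm38, while the annotation release and the strand setting of the counting are not given in the sources used here. Groups and tumor numbers were taken from the labels. Reads aligned to several places were not counted, so genes with close copies are undercounted. The summary lines that close each table were left out (reads on no gene were 11.2% to 18.9% of those on genes or no gene).

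Symbols, positions and exon lengths were taken from GENCODE M21. TMM normalization and edgeR 4.0.16 (R 4.3.3, limma 3.58.1; quasi-likelihood F-test, robust) were applied in 1 fit of 12 tumors, after filterByExpr (minimum count 10, minimum total 15). P-values were adjusted by Benjamini-Hochberg over 16645 genes, with a threshold of 0.05, and each SE was obtained by dividing the absolute log2 fold change by the root of F. The prior count of log2 CPM was 2. The permutation test covered 70 arrangements. Depth per tumor had a median of 38526164 reads. Each interval is the log2 fold change plus or minus the normal quantile times the SE, so it is narrower than the F-test implies. Intervals cover the spread between tumors only. No pair of tumors of a group agreed within sampling noise. The fit was tested on simulated data, in which all groups had the same mean and spread for each gene that was not changed. In the data the lowest correlation within a group was 0.872 in sunitinib, beside 0.967 in control and 0.967 in R+S tumors. The shares called in the simulation therefore need not hold for the data, above all in comparisons with sunitinib. Of 100 genes given an absolute log2 change of 1 in R+S tumors, 44 were called in each comparison with R+S. Of 100 given a change of 2, 83 were called against control and 78 against sunitinib. A gene that was not called can therefore still differ.

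The members and all lists were chosen with earlier results of these data known. Values in every tumor are given for called members and for Mtor, Rptor, Rictor, Deptor, Tsc1, Tsc2, Rheb, Irs1, Irs2, Grb10, Sgk1, Foxo1 and Foxo3; of the other lists, up to 6 called genes per comparison with the largest change are named. Alternatives were DESeq2 1.42.0, other normalizations and filters, fits of 8 tumors, marker covariates, sunitinib or R+S tumors of 1 label prefix summed, and each tumor left out.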

Additional observations from a re-analysis of the deposited data

Results flagged for a closer look

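In 6 of 105 groups of 4 tumors (35 members in 3 groups) the highest or lowest tumor stood apart from the other 3 by more than Dixon's 95% limit, and chance gives about 1 in 20 such groups. In control tumors, Irs1 was lowest in tumor 2 at 48.8 CPM (others 64.4 to 67.8), and Pik3r1 was highest in tumor 4 at 155 CPM (others 135 to 138). In sunitinib tumors, Sgk1 was highest in tumor 6 at 47.2 CPM (others 16.7 to 19.3), and Rps6kb2 was highest in tumor 12 at 78.9 CPM (others 59.5 to 62.1). In R+S tumors, Lamtor2 was highest in tumor 4 at 31.2 CPM (others 28 to 28.5), and Fnip1 was highest in tumor 5 at 190 CPM (others 132 to 137). Sunitinib tumor 6 is the tumor with the low summed level of beta-cell markers, and the part of that in its Sgk1 value was not tested.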

How the results depend on the processing

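All 35 members passed the filter on low counts. Counts of called genes are given in the order sunitinib against control, R+S against control and R+S against sunitinib, with 0, 0 and 2 members, 1, 2 and 8 other pathway genes and 0, 1 and 2 FOXO targets as reported. DESeq2 called 1, 3 and 8 members, 2, 7 and 19 other pathway genes, and 2, 1 and 4 FOXO targets, beside 9.06%, 10.4% and 19.5% of all genes. With only the 8 tumors of a comparison, 0, 7 and 0 members, 0, 13 and 1 other pathway genes and 0, 2 and 0 FOXO targets were called. Those fits called 2.33%, 15.8% and 0.0186% of all genes. The acinar score as covariate gave 0, 0 and 1, 0, 0 and 3, and 0, 0 and 2, and with the endothelial score, added after seeing the data, 0 throughout. Of all genes, the acinar fit called 0, 0 and 259, and the endothelial fit called 2, 2 and 6. Sunitinib or R+S tumors that share a label prefix were also summed, while the 4 control tumors, which also share a prefix, were kept apart. This gave 1, 0 and 3 members and 3, 2 and 9 other pathway genes, beside 4.39%, 3.92% and 6.09% of all genes. Library sizes alone gave 0, 2 and 6 other pathway genes, no filter 0, 0 and 5, and at least 10 counts per tumor 0, 1 and 11, with 3 FOXO targets in R+S against sunitinib. Of all genes, library sizes alone called 4.30%, 4.52% and 7.04%, no filter 2.58%, 1.89% and 1.91%, and at least 10 counts per tumor 2.85%, 3.32% and 9.11%. Without sunitinib tumors 6 and 12, also added after seeing the data, the counts were 0, 7 and 0 members, 0, 14 and 5 other pathway genes, and 0, 2 and 1 FOXO targets. Of all genes, 3.64%, 15.2% and 1.16% were called there. Leaving out each tumor in turn gave 0 to 1, 0 to 2 and 0 to 9 members, 0 to 3, 0 to 10 and 0 to 18 other pathway genes, and 0 to 2, 0 to 1 and 0 to 4 FOXO targets. Of all genes, those fits called 2.61% to 5.34%, 1.73% to 9.67% and 0% to 16.9%. For R+S against sunitinib no member was called without R+S tumor 4, 5 or 7, in which case 1, 0 and 1 of all genes were called in place of 1200, while 9 members were called without sunitinib tumor 5 and 4 without sunitinib tumor 6, in which case 16.9% and 10.1% of all genes were called. The cause of these shifts was not tested. Deptor in R+S against sunitinib kept its direction in 23 of 23 alternatives (0.43 to 0.67) and was called in 17; Akt1s1 also kept it in 23 (-0.80 to -0.39) and was called in 14. Of the fixed members near 0 in R+S against sunitinib, Tsc1 turned to -0.049 without R+S tumor 5, to -0.074 and -0.020 without sunitinib tumors 12 and 8 (range over tumors left out -0.074 to 0.13) and to -0.0036 without sunitinib tumors 6 and 12. Irs1 turned to -0.012 without sunitinib tumor 12 (range -0.012 to 0.19) and to -0.025 with the endothelial score, and Tsc2 to 0.10 with the endothelial score. Fbxo32 in R+S against control turned to -0.28 with the endothelial score. Over all 35 members, the sign changed under some alternative for 25, 29 and 10 genes. No paired analysis was possible because the groups share at most 1 replicate number.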

Other observations

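Among the 62 other pathway genes tested, the R+S tumors lay apart from all 8 other tumors for 12 (19.4%, beside 8.24% of all genes), 7 higher and 5 lower, a property looked at after the values had been seen. The higher ones included Insr, the insulin receptor, Inppl1, a lipid phosphatase that acts on the product of PI3K, Ulk1, a kinase that starts autophagy, Nprl3, a GATOR1 subunit, Fnip2, a folliculin partner, and Foxk1, a transcription factor downstream of mTORC1. Insr had 74.4, 83.0, 91.1 and 94.6 CPM in control tumors 1 to 4, 93.6, 69.8, 61.3 and 58.0 in sunitinib tumors 5, 6, 8 and 12, and 96.1, 103, 98.8 and 106 in R+S tumors 4, 5, 7 and 10. R+S against sunitinib was 0.52 (SE 0.146, adjusted p = 0.0539 by edgeR). For Inppl1 the same comparison gave 0.84 (SE 0.236, adjusted p = 0.0524) and R+S against control 0.90 (SE 0.236, adjusted p = 0.0552), and 17.2% of its 50-base words are shared with other genes. None of these named genes was called in either comparison with R+S. The lower ones were Sec13, Eif4ebp1, Ddit4, Eif4a1 and Telo2.

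Of the FOXO targets, Bcl2l11, a pro-apoptotic BCL2 family gene, was also highest in the 4 R+S tumors, at 97.8 to 111 CPM, against 58.7 to 90.0 in control and 49.4 to 91.7 in sunitinib tumors. Its log2 fold change was 0.57 (SE 0.186, adjusted p = 0.0745 by edgeR) in R+S against sunitinib. Rps6, which encodes the ribosomal protein that S6 kinase phosphorylates, read only 4.60 to 7.63 CPM over the 12 tumors, and 43.8% of its 50-base words are shared with other genes, mainly the pseudogene Rps6-ps4.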
